A study of Gallus gallus with 6 samples.

Results

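White cell miRNAs are the microRNAs of miR-142, miR-223, miR-150, miR-155 and miR-146, small RNAs known best from blood and immune cells. Here they were followed in the testis of the breeder cock, in small RNA libraries of left testis tissue. The members were every entry of the miRNA table whose name, without its species prefix and its suffix, was one of these 5 miRNAs with or without a letter, in either arm. The rule found 19 of the 1302 table lines with values, which held 18 distinct sequences of 1151 in the whole table. Of the 18 sequences 11 belonged to miR-146, 3 to miR-142, 2 to miR-155, 1 to miR-150 and 1 to miR-223.

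The libraries came from Cobb500 cocks 40 weeks old. Group A (3 libraries, A1 to A3) had Astragalus polysaccharide (APS), a plant extract used as an immune-modulating feed additive, mixed into its corn and soybean feed at 10 g per kg. Group C (3 libraries, C1 to C3) was given the corn and soybean feed alone. Per the study's methods each replicate was a single bird and the tissue was taken free of blood. Unsorted testis tissue holds germ, supporting, vessel and connective cells beside any white cells. The comparison of A with C asked which miRNAs of the testis differ with the diet.

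A miRNA is cut from a hairpin whose 2 arms give a 5p and a 3p strand, of which usually a single one is kept in quantity. Bases 2 to 8 of the strand, the seed, choose the mRNAs that it represses. In mammals miR-142 is made almost only in blood cells, miR-223 in granulocytes and macrophages, and miR-150 in mature lymphocytes. The hairpin of miR-155 lies in BIC, a transcript first found in chicken lymphomas, and is induced in activated B cells, T cells and macrophages. Of the miR-146 family, miR-146a is induced by NF-kB and in human cells represses TRAF6 and IRAK1, which carry the signal of Toll-like receptors. miR-146 is also made by cells other than white cells, vessel lining cells among them.

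The sequences that the results turn on are those of the miR-146 5p strands, which, apart from a copy that starts 1 base later, differ among themselves only near the 3' end, and of the strands of miR-142, miR-150 and miR-155. They are given 5' to 3' as the deposited table lists them, with T for U and with the seed in capitals. In the table's names L and R mark the 5' and the 3' end with the number of bases lost (-) or gained (+) against the database entry, and ss marks substitutions.
gga-miR-146c-5p_R-1: tGAGAACTgaattccatggact
gga-miR-146c-5p_4ss18GA20AG22TG23GT: tGAGAACTgaattccataggcgt
gga-miR-146a-5p_R+2: tGAGAACTgaattccatgggttgt
xtr-miR-146b_R+3: tGAGAACTgaattccatggactgta
cgr-miR-146b-5p_R+1: tGAGAACTgaattccataggctgt
gga-miR-146c-5p_L-1R-1: gAGAACTGaattccatggact
gga-miR-146a-3p_R-1: aCCCATGGggctcagttcttca
gga-miR-146b-3p_L+2: tGCCCTATggattcagttctgc
gga-miR-146c-3p_L-1: gTCCATGGtattcagttctct
gga-miR-142-5p_L-2R+1: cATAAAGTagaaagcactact
gga-miR-142-3p: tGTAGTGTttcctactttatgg
aca-miR-150-5p_R-1_1ss12TC: tCTCCCAAcccctgtaccagt
gga-miR-155_R+1: tTAATGCTaatcgtgataggggt
dre-miR-223_L-1R+4: gTCAGTTTgtcaaataccccaata

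The seed GAGAACT was shared by 6 members, all of them miR-146 5p strands, and by no other sequence of the table. Those 6 members held 93.7% of the 120486 counts of all members. The seed of miR-150, CTCCCAA, stood in 1 further table entry, named mmu-miR-3971, and the seeds of miR-142 and miR-155 in no entry that is not a member. The sequence of gga-miR-142-5p starts 2 bases after its database entry by its name, so its seed as sequenced is not that of the entry. By the authors' classes, 11 member sequences matched hairpins of Gallus gallus that also mapped to the genome, and these held 97.7% of the member counts. Of the others, 1 mapped to the genome without its hairpin, and 6 were placed on hairpins of other vertebrates with neither hairpin nor read mapped to the genome. The class of 6 holds the miR-150 sequence, xtr-miR-146b_R+3, cgr-miR-146b-5p_R+1 and the only miR-223 entry.

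Set against gga-miR-146c-5p_R-1, with positions counted from its 5' end over its 22 bases, the sequence listed with 4 substitutions differed by G18A, A20G and T22G. The fourth substitution of its name lies past base 22. The sequence cgr-miR-146b-5p_R+1 differed by G18A and A20G, and gga-miR-146a-5p_R+2 by A20G and C21T. No substitution separated xtr-miR-146b_R+3, which carried 3 more bases at its 3' end. From base 13 on, the 4-substitution sequence was complementary, without a wobble pair, to 8 bases in a row of gga-miR-146b-3p_L+2 (TCCATAGG, bases 13 to 20), against 4 in a row of gga-miR-146a-3p_R-1 and gga-miR-146c-3p_L-1. The same 8 bases of cgr-miR-146b-5p_R+1 matched gga-miR-146b-3p_L+2. The sequence gga-miR-146c-5p_R-1 matched gga-miR-146c-3p_L-1 over CCATGGAC (bases 14 to 21), and gga-miR-146a-5p_R+2 matched gga-miR-146a-3p_R-1 over CCATGGGT (bases 14 to 21). The table lists the 4-substitution sequence under gga-miR-146c-5p, and that name is kept below.

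The genome build behind the table was not named in the sources read, so no coordinates are set beside it. In the RefSeq annotation of the chicken assembly GRCg7b, MIR155 lies within MIR155HG, its host transcript, and MIR146C-1 within DDRGK1, a protein-coding gene. MIR142 lies between TSPOAP1 and SUPT4H1 and is spanned by LOC107054776. MIR146A lies within the non-coding LOC121106732, MIR146B is next to SLF2, and MIR223 lies within the non-coding LOC107053194 between ARHGAP20B and HSF3.

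The miRNA counts summed to 576714, 721285 and 632748 in A1 to A3, against 497286, 743187 and 533096 in C1 to C3. Levels below are CPM, the counts per 1000000 counts of a library, with these totals scaled by TMM factors. Where a library has 0 counts, its true level may still reach 3 counts, which is 4.04 to 6.03 CPM by library before TMM scaling. Members took 3.08% to 3.77% of the counts in A and 2.80% to 3.28% in C. As for the labelled tissue, miR-202 of gonad somatic cells summed to 40016 to 56234 CPM in A and 44221 to 66468 CPM in C. The germ cell miRNAs miR-34b, miR-34c and miR-449 summed to 1207 to 1376 CPM in A and 819 to 990 CPM in C. The red cell miRNAs miR-144, miR-451 and miR-486 were low, at 134 to 260 CPM in A and 150 to 292 CPM in C. In whole tissue, fewer cells of a type and less of a miRNA per cell cannot be told apart.

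gga-miR-146c was by far the most abundant of the miRNAs followed here, and which cells made it was not tested. Of the 14 members tested, 0 were called different between the diets at an adjusted p under 0.05 in the edgeR test, as were 0% of all sequences tested, and 0 at an unadjusted p under 0.05. The strand gga-miR-146c-5p_R-1 took 79.5% of the member counts and was the 13th most abundant of the 1151 sequences. It stood at 28717, 25540 and 29700 CPM in A1 to A3, against 21620, 23900 and 26363 CPM in C1 to C3. The highest C library was above the lowest A library, so the diets overlapped, and the 6 libraries lay within 1.37-fold of each other. The mean was 27986 ± 2174 CPM in A and 23961 ± 2372 CPM in C (SD, n = 3 each). Its log2 fold change (A over C) was 0.22 (SE 0.13), with an adjusted p of 0.705 by edgeR's quasi-likelihood test with Benjamini-Hochberg adjustment over the 774 sequences tested.

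**Figure D1:**
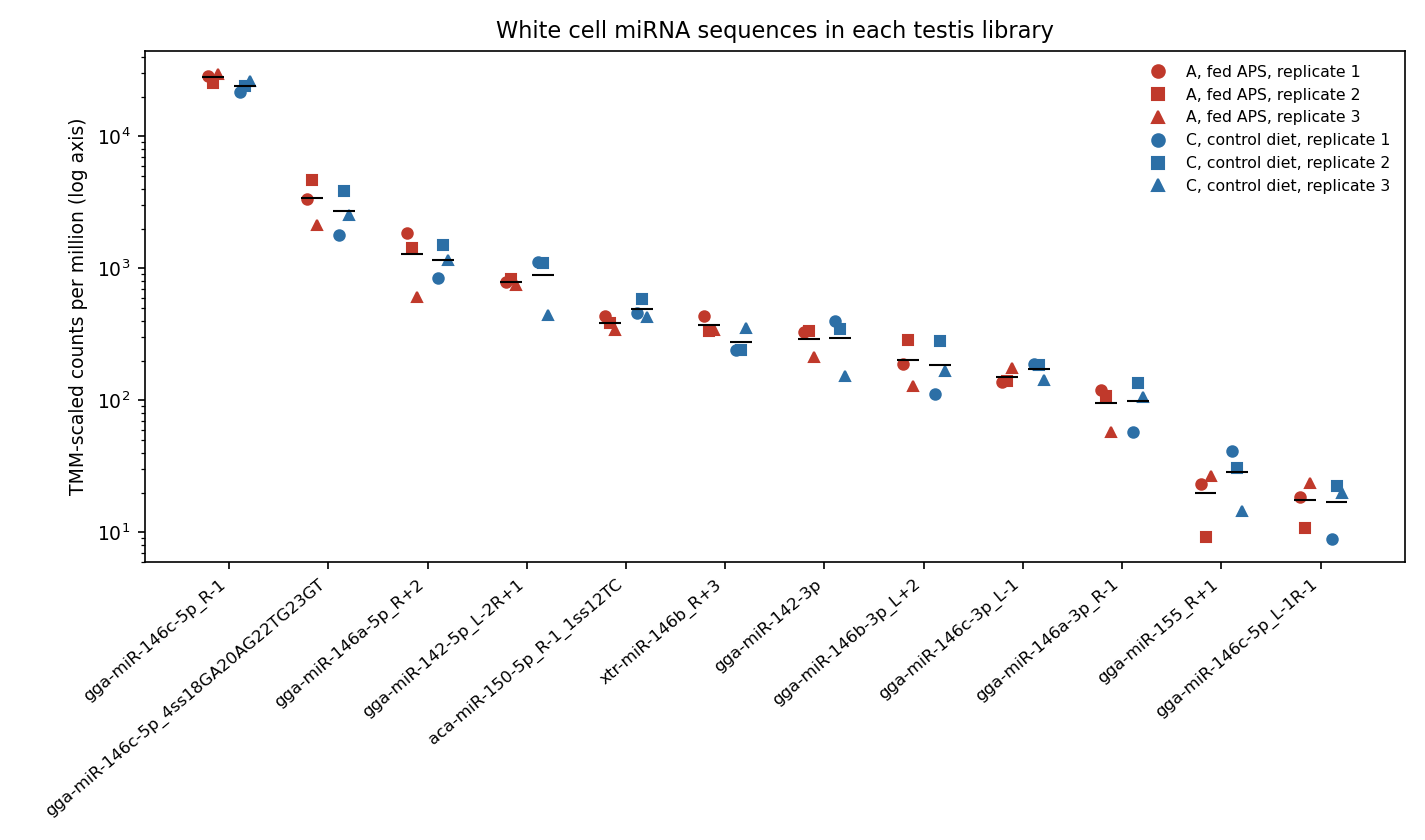
Level of the 12 member sequences with at least 5 counts in every library, in TMM-scaled CPM on a log axis. Each point is a library, red for A (fed APS) on the left and blue for C (control diet) on the right of each pair, and black lines are group means. gga-miR-146c-5p_R-1 is on top at 21620 to 29700 CPM in all 6 libraries, and the points of A and C overlap for every sequence shown.

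The second member in level was the 4-substitution sequence, gga-miR-146c-5p_4ss18GA20AG22TG23GT. It stood at 3349, 4713 and 2149 CPM in A1 to A3, against 1793, 3848 and 2533 CPM in C1 to C3. The highest and the lowest library were A2 and C1, 2.63-fold apart, and each diet spanned most of that range. Its log2 fold change was 0.32 (SE 0.33), with an adjusted p of 0.817 in the edgeR test. The third, gga-miR-146a-5p_R+2, carries the 5p strand of gga-miR-146a and had 1851, 1425 and 604 CPM in A1 to A3, against 841, 1495 and 1166 CPM in C1 to C3. A1 and A3 were the extremes, 3.06-fold apart, so that both ends of its range lay within the APS group. The log2 fold change came to 0.15 (SE 0.37), with an adjusted p of 0.937 in the edgeR test.

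The strand xtr-miR-146b_R+3, named after a frog miRNA, had 435, 338 and 339 CPM in A1 to A3, against 242, 239 and 352 CPM in C1 to C3. C1 and C2 were lowest and C3 lay among the A libraries. Its log2 fold change of 0.42 (SE 0.23) had the smallest unadjusted p of the members, 0.102, with an adjusted p of 0.705 in the edgeR test. Its first 22 bases are those of gga-miR-146c-5p_R-1. The authors divided reads that fit several lines, so its values are not independent of those of gga-miR-146c-5p_R-1, and the sources do not say which reads with an added 3' base were counted in which line.

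The 3p strands of the miR-146 family each stayed at or below 284 CPM in every library. gga-miR-146b was represented under its own chicken name by its 3p strand alone: gga-miR-146b-3p_L+2 had 189, 284 and 128 CPM in A1 to A3, against 111, 280 and 166 CPM in C1 to C3. A2 and C2 were highest, as for the 4-substitution sequence. gga-miR-146c-3p_L-1 had 137, 139 and 177 CPM in A1 to A3, against 188, 187 and 144 CPM in C1 to C3, a narrow range of 1.37-fold in which the diets overlapped. gga-miR-146a-3p_R-1 had 121, 108 and 58.0 CPM in A1 to A3, against 57.3, 134 and 106 CPM in C1 to C3. In this order, their log2 fold changes were 0.11 (SE 0.38), -0.19 (SE 0.22) and -0.06 (SE 0.38), with adjusted p of 0.941, 0.838 and 0.967 in the edgeR test.

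miR-142, the miRNA most restricted to blood cells, was present with both strands. The 5p strand, gga-miR-142-5p_L-2R+1, had 785, 837 and 751 CPM in A1 to A3, against 1120, 1089 and 444 CPM in C1 to C3. The A libraries were close to each other and lay between C3 and the other two C libraries. The 3p strand, gga-miR-142-3p, had 330, 338 and 211 CPM in A1 to A3, against 399, 346 and 153 CPM in C1 to C3. C1 was highest and C3 lowest in both strands. The log2 fold change was -0.16 (SE 0.31) for the 5p strand and -0.03 (SE 0.35) for the 3p strand, with adjusted p of 0.912 and 0.975 in the edgeR test.

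C3 decided the unadjusted p of 2 members. Without C3, gga-miR-142-5p_L-2R+1 had a log2 fold change of -0.48 with an unadjusted p of 0.0298, and xtr-miR-146b_R+3 one of 0.63 with an unadjusted p of 0.0272. The adjusted p of both was 0.689 in that edgeR fit. In the same fit, 48 of all 785 sequences had an unadjusted p under 0.05. C3 was the C library lowest in gga-miR-142-5p_L-2R+1 and highest in xtr-miR-146b_R+3.

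miR-150 was found as a single sequence under the name of a lizard miRNA, aca-miR-150-5p_R-1_1ss12TC. It had 432, 383 and 342 CPM in A1 to A3, against 458, 584 and 430 CPM in C1 to C3. A1 was just above C3, and the diets also overlapped as plain shares of the library counts. With the authors' scaling constants or the valid reads as library sizes they did not. Under TMM scaling the diets did not overlap for 13.2% of all sequences tested. The log2 fold change was -0.35 (SE 0.20), with an unadjusted p of 0.116 and an adjusted p of 0.705 in the edgeR test.

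gga-miR-155 was near the limit of these libraries. The sequence gga-miR-155_R+1 had 14, 6 and 18 counts in A1 to A3, against 23, 20 and 8 counts in C1 to C3. These are 23.4, 9.23 and 26.8 CPM in A1 to A3, against 41.2, 30.9 and 14.6 CPM in C1 to C3, 4.46-fold between the extremes A2 and C1. A over C, the log2 fold change was -0.54 (SE 0.50), with an adjusted p of 0.798 in the edgeR test. The opposite strand, under the zebra finch name tgu-miR-155-3p_1ss9CT, had 1 count in C1 and none elsewhere.

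No entry under the name gga-miR-223 was among the members. The only miR-223 entry, the zebrafish-named dre-miR-223_L-1R+4, had 0 counts in A1, A2 and A3, against 0, 2 and 0 counts in C1 to C3. A count of 0 over the 3 A libraries allows up to 1.56 CPM, and the 2 counts of C2 make a mean of 1.03 CPM over the 3 C libraries, below that limit. These limits hold for this sequence alone, which by its name starts 1 base after its database entry. A difference in it was not detectable at this depth, and no fold change is given. The level of other forms of miR-223 is not known from this entry.

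The remaining members were rare. gga-miR-146c-5p_L-1R-1, which starts 1 base later than the leading strand, had 18.4, 10.8 and 23.8 CPM in A1 to A3, against 8.95, 22.4 and 20.0 CPM in C1 to C3. gga-miR-146c-3p_L-1R-1 had 2, 1.5 and 4 counts in A1 to A3, against 1, 3 and 1 counts in C1 to C3. cgr-miR-146b-5p_R+1, named after the hamster, had 1.5, 0.5 and 6.5 counts in A1 to A3, against 0, 0.5 and 1 counts in C1 to C3, and most of its counts were in A3. Its log2 fold change of 1.998 (SE 1.14) was the highest of the members and had an adjusted p of 0.705 in the edgeR test. oan-miR-142-5p_R+1_1ss1CN had 2 counts in A and 1 count in C, and aca-miR-146a-5p_R+3_1ss18AG had 1 count in A and 0.5 counts in C. Together with tgu-miR-155-3p_1ss9CT and dre-miR-223_L-1R+4, these were the 4 members below the limit for testing, a mean normalized value of 1 in either diet.

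Over the 14 members tested, 0 had an adjusted p under 0.05, as had 0% of the 774 sequences tested. At an unadjusted p under 0.05 there were 0 of 14 members, against 5.94% of all sequences tested. DESeq2 and limma also gave 0 members at an unadjusted p under 0.05, and 23 and 52 of all sequences. The A and C libraries did not overlap for 0 of 14 members, against 13.2% of all sequences. The log2 fold change was above 0 for 8 members and below 0 for 6, with a median of 0.06, beside 348 above and 426 below 0 and a median of -0.09 over all sequences. The adjusted p of the members ran between 0.705 and 0.985. The biological coefficient of variation between replicates had a median of 32.4% over the members (17.4% to 63.1%), near the 35.4% over all sequences, and was smallest for gga-miR-146c-5p_R-1.

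**Figure D2:**
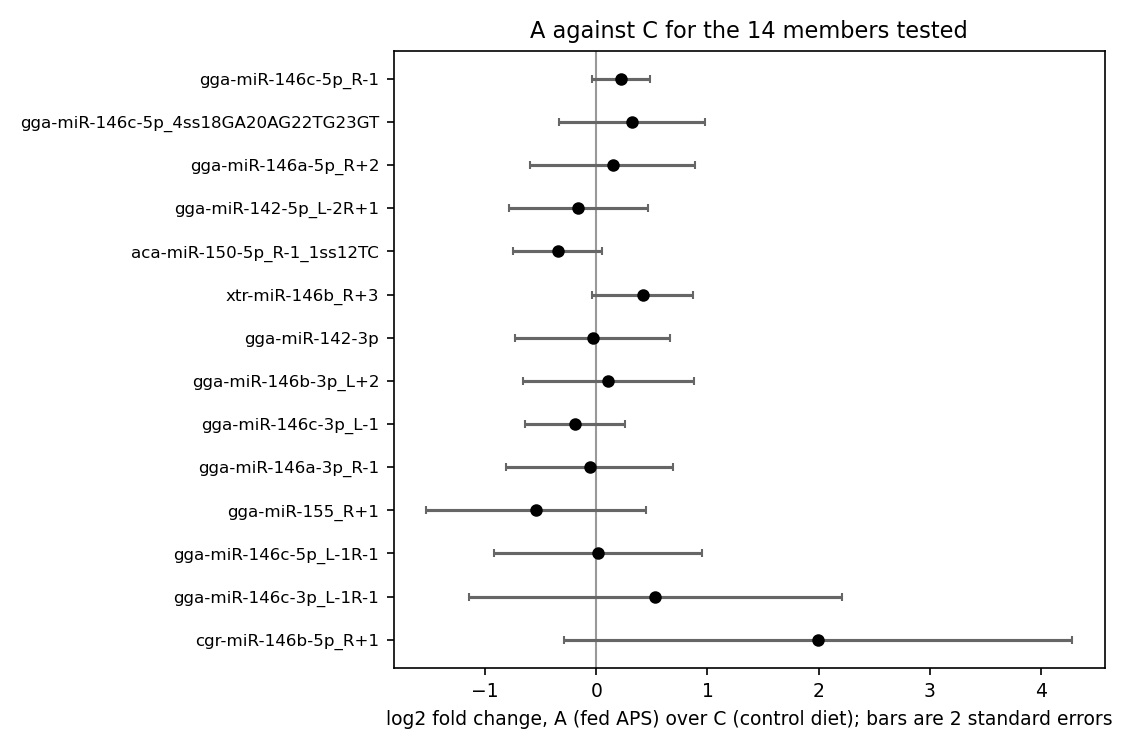
Log2 fold change (A over C) of the 14 members tested, in order of level with the most abundant on top. Points are edgeR estimates and bars are 2 standard errors on each side. All 14 bars cross 0, and the bar is narrowest for gga-miR-146c-5p_R-1, at 0.22, and widest for cgr-miR-146b-5p_R+1, at 1.998.

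The intervals give the range of fold changes around each estimate, not which changes the test would have called. With 2 standard errors on each side, the log2 fold change lay between -0.03 and 0.48 for gga-miR-146c-5p_R-1, between -0.79 and 0.46 for gga-miR-142-5p_L-2R+1 and between -0.75 and 0.05 for miR-150. For gga-miR-155_R+1 it lay between -1.53 and 0.45. A doubling of the leading strand with APS is outside its interval, while a loss of miR-155 by more than 2-fold is inside that of gga-miR-155_R+1.

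Ordered by level over all 6 libraries, gga-miR-146c-5p_R-1 was 8.48-fold above the 4-substitution sequence, and their ranges did not overlap. The 4-substitution sequence was above gga-miR-146a-5p_R+2 in 6 of 6 libraries, though the ranges overlapped. gga-miR-146a-5p_R+2 and gga-miR-142-5p_L-2R+1 could not be ordered, with the first higher in 4 of 6 libraries. miR-150 stood below gga-miR-142-5p_L-2R+1 in every library. xtr-miR-146b_R+3 and gga-miR-142-3p were level with each other, the first being higher in 3 of 6 libraries. gga-miR-155_R+1 was below gga-miR-146a-3p_R-1 in 6 of 6 libraries without overlap.

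Summed by family, miR-146 reached 34824, 32562 and 33195 CPM in A1 to A3, against 24863, 30111 and 30854 CPM in C1 to C3. All A sums were above all C sums, with a mean of 33527 ± 1167 CPM in A and 28609 ± 3265 CPM in C (SD, n = 3 each). For comparison, the diets did not overlap, in either direction, for 13.2% of all single sequences tested. As a plain share of the library counts the diets overlapped, at 3.61%, 2.94% and 3.53% in A1 to A3 against 2.79%, 2.62% and 3.18% in C1 to C3. They also overlapped per valid read, but not with the authors' scaling constants. In TMM-scaled CPM, the germ cell list named above likewise had all its A sums above its C sums, which does not extend to plain shares of the library counts. Of its 9 tested sequences, 1 was higher in A at an unadjusted p under 0.05 and 0 at an adjusted p under 0.05 in the edgeR test. Over all sequences tested, in either direction, these shares were 5.94% and 0%. The part of germ cells in the miR-146 sum was not tested. No test was made on the sums, since the members were chosen with earlier results known. The sum of all members without gga-miR-146c-5p_R-1 overlapped between the diets, at 7678, 8591 and 4828 CPM in A1 to A3 against 5264, 8264 and 5534 CPM in C1 to C3.

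The miR-142 sum was 1115, 1176 and 964 CPM in A1 to A3, against 1520, 1435 and 599 CPM in C1 to C3. The spread within C was 2.54-fold and took in all A libraries. The miR-155 sum was 23.4, 9.23 and 26.8 CPM in A1 to A3, against 43.0, 30.9 and 14.6 CPM in C1 to C3. The ratio of means, A over C, was 1.17 for miR-146, 0.916 for miR-142, 0.786 for miR-150 and 0.672 for miR-155. The mean ratio lay on the same side of 1 for each of these families under TMM scaling, the authors' constants, library counts and valid reads.

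**Figure D3:**
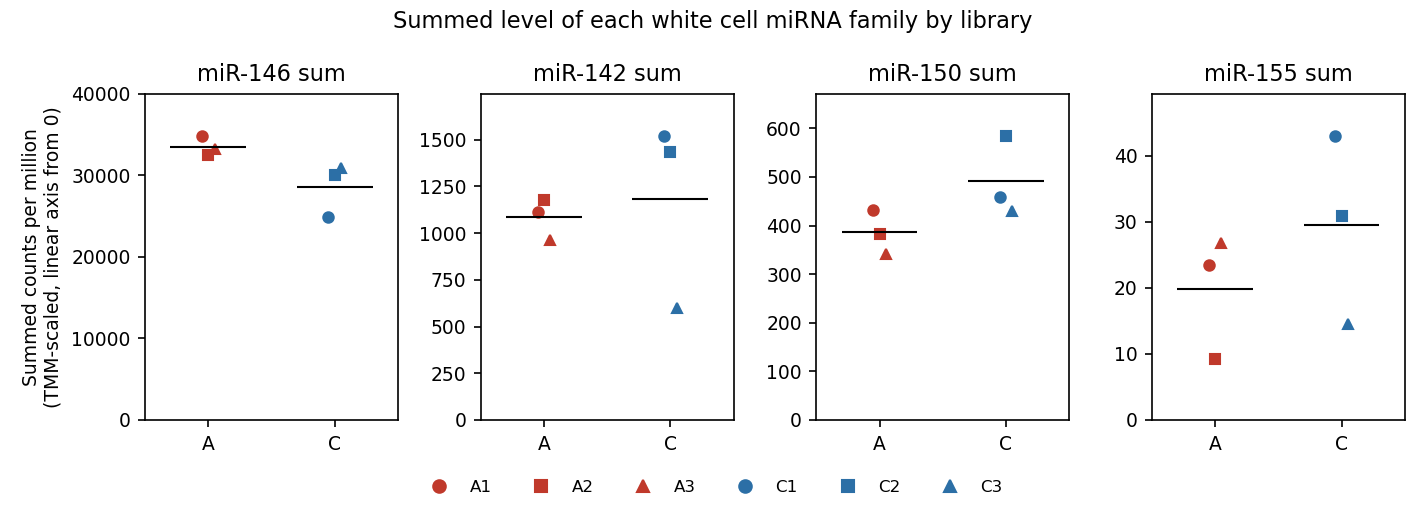
Summed level of miR-146, miR-142, miR-150 and miR-155 in each library, in TMM-scaled CPM on linear axes that start at 0. Points are libraries, red for A (fed APS) on the left and blue for C (control diet) on the right, and lines are group means. The miR-146 sums of A (32562 to 34824 CPM) lie above those of C (24863 to 30854 CPM), while the other families overlap, with C3 apart from C1 and C2 in miR-142. As plain shares of the library counts, the miR-146 sums of the diets overlap.

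The 5p strand was the major strand of miR-142, miR-146a and miR-146c, and the arms were compared within libraries, where no scaling enters. For miR-142 the 5p to 3p ratio was 2.38, 2.47 and 3.55 in A1 to A3, against 2.80, 3.14 and 2.91 in C1 to C3. For miR-146a it was 15.3, 13.2 and 10.3 in A1 to A3, against 14.5, 11.1 and 10.96 in C1 to C3. By the table's names, the ratio of miR-146c was 227, 213 and 173 in A1 to A3, against 123, 144 and 197 in C1 to C3. The exact permutation p (two-sided) was 0.6 for miR-142, 0.9 for miR-146a and 0.2 for miR-146c, and the smallest p that 3 against 3 libraries allow is 0.1. Adjusted over the 4 miRNAs with both arms marked in their names, these were 0.80, 0.90 and 0.80. Names with no arm ending were left out of the arm sums, which removed gga-miR-155_R+1, and with it the arms of miR-155, and xtr-miR-146b_R+3.

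The arms of miR-146b depended on which sequences were taken as its 5p strand. By name, its only entry marked 5p was cgr-miR-146b-5p_R+1, and the 5p to 3p ratio ran between 0.00539 and 0.0809 over the 6 libraries. From base 13 on, xtr-miR-146b_R+3 was complementary to 8 bases in a row of gga-miR-146c-3p_L-1, against 5 in a row of gga-miR-146b-3p_L+2. It was counted as a further 5p strand of miR-146b by its name, a choice made after the data were seen. The ratio was then 2.31, 1.19 and 2.71 in A1 to A3, against 2.17, 0.857 and 2.13 in C1 to C3. The diets overlapped (exact permutation p = 0.5). With the 4-substitution sequence counted as the 5p strand of miR-146b instead, also chosen after the data were seen, the ratio was 17.6, 16.5 and 16.8 in A1 to A3, against 16.04, 13.7 and 15.2 in C1 to C3. This was the narrowest range among the 4 hairpins. The A libraries were then all above the C libraries by a mean of 0.18 on the log2 scale, at an exact permutation p of 0.1, the smallest possible, and an adjusted p of 0.4. By name the exact permutation p was 0.5.

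**Figure D4:**
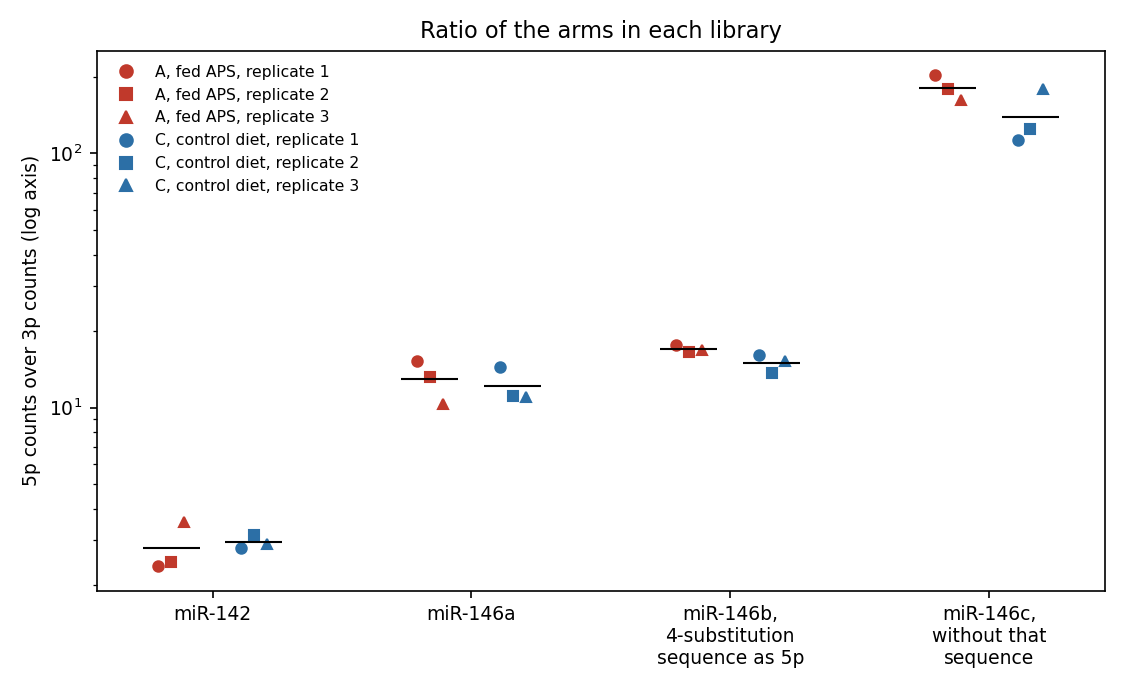
Ratio of 5p to 3p counts of each hairpin by library, on a log axis, with red for A (fed APS) on the left and blue for C (control diet) on the right of each pair and lines at group means. miR-146b is drawn with the 4-substitution sequence as its 5p strand and miR-146c without that sequence. The ratios run from 2.38 to 3.55 for miR-142 and from 113 to 203 for miR-146c, while those of miR-146a (10.3 to 15.3) and miR-146b (13.7 to 17.6) overlap.

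The 5p strand of miR-146c started almost always at the same base. Of the counts of gga-miR-146c-5p_R-1 and its copy that starts 1 base later, the later start took 0.0641%, 0.0421% and 0.0801% in A1 to A3, against 0.0414%, 0.0969% and 0.0759% in C1 to C3. The exact binomial intervals (95%, counting error only) overlapped among all 6 libraries, with the least overlap between A2 (0.0169% to 0.0868%) and C2 (0.0542% to 0.160%). The later start moves the seed to AGAACTG. The sources do not say whether a line counted identical reads only, so these shares hold for the table's lines.

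Among the 10 members with at least 10 counts in every library, the order of the 6 libraries by level was the same in 2 of 45 pairs. The first pair was both strands of miR-142, in the order C1, C2, A2, A1, A3 and C3. The second pair was the 4-substitution sequence and gga-miR-146b-3p_L+2, in the order A2, C2, A1, C3, A3 and C1. The strands of miR-146a had nearly the same order, with A1, A2, C2 and C3 above A3 and C1 in both. The strands of miR-146c did not: gga-miR-146c-5p_R-1 was highest in A3 and A1, and gga-miR-146c-3p_L-1 was highest in C1 and C2.

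The same orders were set beside those of marker miRNAs of other testis cells. miR-126, a miRNA of vessel lining cells, summed to 13223, 14559 and 3860 CPM in A1 to A3, against 5540, 18045 and 11475 CPM in C1 to C3. As with both miR-146a strands, A3 and C1 were the lowest libraries. They were also lowest in miR-143 and miR-145, miRNAs of smooth muscle. These summed to 73933, 108480 and 60746 CPM in A1 to A3, against 62376, 110771 and 83118 CPM in C1 to C3. miR-199 and miR-214, miRNAs of fibroblasts, summed to 24280, 35210 and 19196 CPM in A1 to A3, against 16093, 36022 and 22112 CPM in C1 to C3. That is the order of gga-miR-146b-3p_L+2 and the 4-substitution sequence but for A2 and C2, which change places. The vessel, smooth muscle and fibroblast lists all had A2 and C2 highest and A3 and C1 lowest, so neither likeness was particular to a single list.

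miR-202, a miRNA of gonad somatic cells, summed to 40016, 43889 and 56234 CPM in A1 to A3, against 66468, 62984 and 44221 CPM in C1 to C3. gga-miR-146c-3p_L-1 put all 6 libraries in the same order, the only one of the 100 pairs of a member with a marker list that did. Its A1 and A2 were nearly tied (137 and 139 CPM), as were its C1 and C2 (188 and 187 CPM). Counting error alone may decide these ranks. miR-124, a miRNA of nerve at 27.7 to 58.2 CPM, had the order of miR-202 but for A1 and A2, which change places. These likenesses were looked for after the values were seen. The part of vessel, smooth muscle, fibroblast, nerve and gonad somatic cells in the levels of the miR-146 members was not tested.

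**Figure D5:**
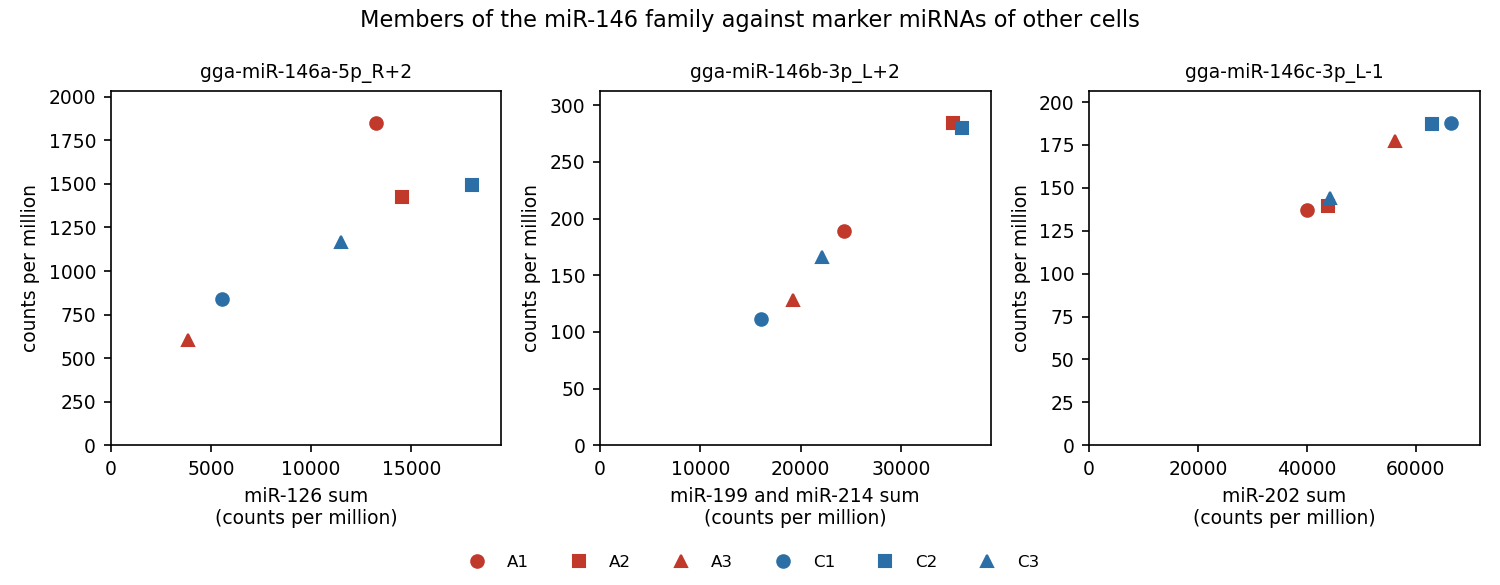
Level of a miR-146 member (y axis, CPM) against the summed level of a marker list (x axis, CPM) in the 6 libraries, red for A (fed APS) and blue for C (control diet). From left to right, gga-miR-146a-5p_R+2 is set against miR-126, gga-miR-146b-3p_L+2 against miR-199 and miR-214, and gga-miR-146c-3p_L-1 against miR-202. A3 and C1 are lowest on both axes on the left, A2 and C2 highest on both in the middle, and C1 and C2 highest on both on the right.

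For neither miR-142 strand did any marker list have the same library order. The red cell miRNAs, which mark blood in a tissue, summed to 260, 217 and 134 CPM in A1 to A3, against 292, 150 and 153 CPM in C1 to C3. C1 was highest in these as in miR-142, but C2 was among the lowest and was the second highest in miR-142. Over the 6 libraries the Pearson r with the red cell sum was 0.68 for gga-miR-142-3p and 0.41 for gga-miR-142-5p_L-2R+1, on log2(CPM + 1). The 5p strand had a higher r with the sums of miR-202 (0.65), of striated muscle miRNAs (0.65) and of miR-124 (0.44). Its likeness was therefore not particular to red cells. For the 3p strand the r with red cells was the highest, and that with striated muscle miRNAs was next at 0.55. The part of blood in the miR-142 level was not tested.

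Other miRNAs known from activated or developing white cells (miR-21, miR-29, miR-132, miR-147, miR-181 and miR-212, 21 sequences) summed to 67066, 80486 and 74283 CPM in A1 to A3, against 54016, 57898 and 60667 CPM in C1 to C3. The A sums were all above the C sums. For 13.2% of all single sequences tested the diets did not overlap, in either direction. Of the 18 sequences of this list that were tested, 0 had an adjusted p under 0.05 in the edgeR test. By the same test 2 had an unadjusted p under 0.05, both higher in A, beside the 5.94% of all sequences. Of the 18 tested, 14 had a positive log2 fold change, with a median of 0.37. Over all sequences tested, 348 were above and 426 below 0, with a median of -0.09. gga-miR-21-5p was the most abundant sequence of the list, and miR-21 is made by many cell types besides white cells.

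The 3 sequences outside the members whose level was most like that of gga-miR-146c-5p_R-1 over the 6 libraries were gga-miR-22-3p (Pearson r = 0.96), the candidate miRNA PC-5p-37270_123 (r = 0.94) and hsa-miR-3120-3p (r = 0.93). They were picked as the highest of 396 candidates with a mean of at least 10 CPM, on log2(CPM + 1), so the r values are a description with no test. On the same scale, gga-miR-146c-5p_R-1 had r = -0.55 with gga-miR-142-5p_L-2R+1, -0.54 with gga-miR-142-3p and -0.61 with miR-150. With the sum of the other white cell miRNAs listed above, its r was 0.67. The part of white cells in its level was not tested.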

How the data were processed

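The authors trimmed and filtered the reads with ACGT101-miR (version 4.2) and aligned them to miRBase hairpins with mismatches and end variants allowed. They deposited raw values, which are expected counts because a read with several names is divided between lines (75.4% of member values were whole within 0.001), and normalized values, a signal obtained from the raw counts with 1 scaling constant for each library. Which genome build was used was not stated in any source read. Deposited fold changes and p-values were not used.

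Counts were summed per distinct sequence and rounded. The 774 sequences whose normalized values averaged 1 or more in A or in C were tested, and the other 377 were not. The test of A against C was the quasi-likelihood test of edgeR 4.0.16 with TMM scaling, in R 4.3.3. Arms were compared by two-sided exact permutation of log2 ratios with 0.5 added to each count, adjusted by Benjamini-Hochberg. Alternatives used DESeq2 1.42.0, limma 3.58.1, other scalings and filters, the replicate block, other groupings of lines, and each library left out. The edgeR step was tested on simulated counts for 771 sequences of this comparison. Of these, 571 were left unchanged, 81 were changed 1.5-fold, 56 were changed 2-fold and 63 were changed 4-fold. The simulated spread followed the trend with level, not the spread of each sequence. At an adjusted p under 0.05 it called 49.2% of the 4-fold, 21.4% of the 2-fold and 0% of the 1.5-fold changes. These shares hold for that setting and are not the power for these data. Other values came from scipy 1.17.1, numpy 2.4.6 and pandas 2.3.3 under Python 3.11.15, and plots from matplotlib 3.10.9. All members are named. Other sequences enter as lists, or as the 3 most like the leading member. Members and lists were chosen with earlier results of these data known. Precision follows from totals of 497286 to 743187 counts per library, and binomial intervals and limits on a count of 0 cover counting error only, as PCR-amplified reads carried no molecular tags. Intervals of fold changes include the spread between birds.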

Additional observations from a re-analysis of the deposited data

How the results depend on the processing

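Over 16 alternative settings, 218 fold changes of members were computed. In 196 the direction was kept, in 22 it turned, and in 0 was a member called at an adjusted p under 0.05 (adjusted p from 0.634 to 0.9999). For 7 of the 14 members the direction held in every setting that could be run, gga-miR-146c-5p_R-1 among them (log2 fold change 0.15 to 0.30 with each library left out). Members at an unadjusted p under 0.05 numbered 0 in every setting but the one without C3, where they were 2. In that edgeR fit, 48 of all 785 sequences had an unadjusted p under 0.05. Over all sequences, 11 had an adjusted p under 0.05 with no filter on low values, against 0 in the other settings. At an unadjusted p under 0.05 there were 82 with no filter, 20 with a mean of at least 10 counts, 23 with DESeq2 and 46 as reported. With the replicate block, which rests on numbers that did not pair the libraries (correlations of same-numbered libraries from -0.09 to -0.01), there were 60, and gga-miR-142-3p had a log2 fold change of 0.042. With limma on log2 normalized values it was 0.024 for gga-miR-142-3p. The log2 fold change of gga-miR-146c-5p_L-1R-1 was -0.0089 with a mean of at least 10 counts, -0.0082 with RLE size factors and -0.0069 with DESeq2. It was -0.024 with the authors' constants, -0.061 with valid reads and -0.041 with lines summed by full name. The causes of these turns were not tested. With each library left out, log2 fold changes ran between -0.016 and 0.65 for the 4-substitution sequence, -0.17 and 0.49 for gga-miR-146a-5p_R+2, -0.48 and 0.047 for gga-miR-142-5p_L-2R+1, -0.34 and 0.23 for gga-miR-142-3p, -0.26 and 0.53 for gga-miR-146b-3p_L+2, -0.33 and 0.21 for gga-miR-146a-3p_R-1, and -0.29 and 0.27 for gga-miR-146c-5p_L-1R-1. The miR-142 sum ran between -0.45 without C3 and 0.09 without C1 (log2, A over C). The log2 arm ratio of miR-142 ran between -0.28 and 0.01 (A minus C).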
